A study of Rattus norvegicus with 18 samples.

Results

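Whole-kidney gene expression was compared between stroke-prone spontaneously hypertensive rats (SHRSP) and normotensive Wistar Kyoto (WKY) rats at 6 weeks of age. The comparison rested on 6 of the 18 arrays of the series, chosen by strain and age as labelled: 3 arrays of SHRSP/Izm kidneys and 3 of WKY/Izm kidneys, biological triplicates of untreated rats, on a one-colour Agilent rat array. The other 12 arrays held WKY rats, spontaneously hypertensive rats (SHRs, SHR/Izm) and SHRSP at 3 weeks of age and SHRs at 6 weeks of age. All are inbred colonies bred from the same Wistar stock, no group carried an engineered allele or a treatment, and each array held RNA of the kidney as an organ, so that fewer cells of a type and less RNA per cell cannot be told apart.

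SHRSP descend from SHRs, which were bred for high blood pressure. In both hypertensive strains the pressure climbs during the weeks after weaning, and a kidney transplanted from such a rat carries part of the hypertension with it. The kidney sets blood pressure through the sodium it reabsorbs along the tubule, through the angiotensin peptides, and through local kinins and eicosanoids that widen or narrow vessels and change salt excretion. The array reads each transcript through a probe of 60 bases, and a strain difference in the sequence under the probe and a difference in the amount of transcript cannot be told apart.

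Signals are given as log2 values after each array was divided by its 75th percentile, so 0 is the 75th percentile of that array's spots well above background. On the 6 arrays that percentile lay between 3311 and 3955 intensity units, 71.0% to 75.02% of spots were well above background and no spot was saturated. Over the 18400 probes above background on all 18 arrays, r was 0.9977 to 0.9983 between arrays of the same group and 0.9887 to 0.9907 between an SHRSP and a WKY array. Tested probes were those with all 3 arrays of either group well above background, and a probe was called if its adjusted p was under 0.05 (limma with Benjamini-Hochberg adjustment over all tested probes) and its difference exceeded 4-fold. Proximal tubule markers were all present (12 of 12 above background on all 6 arrays, summed level 438 to 476 in SHRSP and 440 to 453 in WKY rats), as were 7 of 7 markers of the thick ascending limb and 8 of 8 of the podocyte. Of 13 adrenal markers 7 were above background on no array and 4 on all 6, of 12 liver markers 5 and 5, and of 12 skeletal muscle markers 7 and 3. The adrenal markers summed to 0.57 to 0.69 in SHRSP and 0.86 to 0.96 in WKY rats. Liver markers summed to 5.78 to 6.12 and 6.28 to 7.32, and muscle markers to 0.66 to 0.83 and 0.71 to 0.74. Whether these tissues contributed RNA was not tested.

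The strain labels at the 2 ages did not match each other, and every direction below is that of the arrays labelled SHRSP. At 3 weeks of age 55 probes (0.276% of those tested) were called between SHRSP and SHRs. That difference uses none of the 6-week arrays, which entered only the estimate of spread. Of the 55, the 6-week arrays labelled SHRSP lay nearer the 3-week arrays labelled SHRs for 47 by their mean, and for 43, 49 and 47 array by array. When only the arrays of the groups compared were fitted, this was so for 42 of 49 probes. The 6-week arrays labelled SHRs lay nearer the 3-week SHRSP arrays for 45 of the 55. Over these probes the median distance of 6-week SHRSP from 3-week SHRs was 0.44 on the log2 scale and from 3-week SHRSP it was 2.49, whereas 6-week and 3-week WKY rats were 0.51 apart. Agtrap, which encodes the protein that binds the angiotensin II type 1 receptor and draws it into the cell, had a mean of 1.96 in 6-week SHRSP, 1.25 in 3-week SHRs and -3.91 in 3-week SHRSP. It had a mean of -2.95 in 6-week SHRs. Vegfb, a vascular endothelial growth factor, had a mean of -8.55 in 6-week SHRSP and -8.69 in 3-week SHRs but -0.51 in 3-week SHRSP and -0.49 in 6-week SHRs. Apoh, Haghl and the globin probe Hba-a3 were the other named genes with the largest 3-week differences, and all 5 lay nearer the opposite label. Exchanged labels at 1 age and changes with age cannot be told apart on these arrays, so the values of 6-week SHRs are given beside those of SHRSP for the genes on which the account turns.

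**Figure D1:**
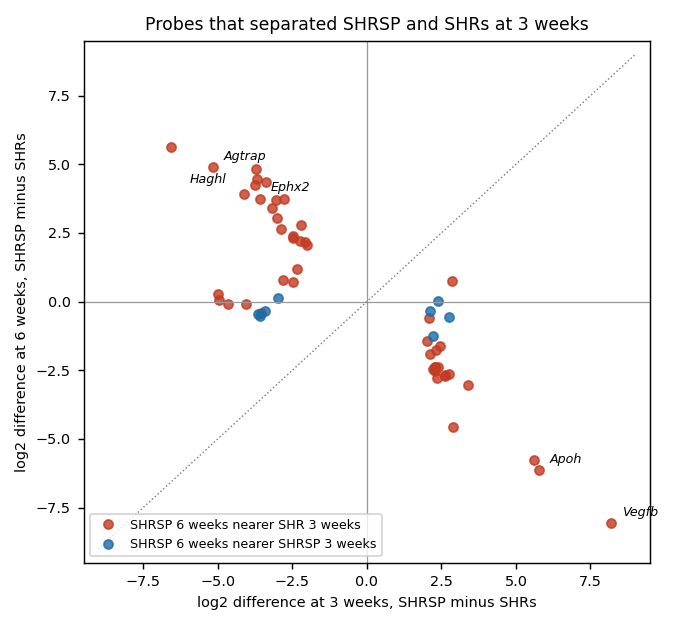
Each point is 1 of the 55 probes called between SHRSP and SHRs at 3 weeks of age, with the log2 difference of the strains at 3 weeks on the x axis and at 6 weeks on the y axis. By the array means, 47 of the 55 probes lay nearer the 3-week SHRs in the 6-week arrays labelled SHRSP, and points below and to the right or above and to the left of 0 are probes whose difference turned.

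At 6 weeks of age, 165 of 20339 tested probes (0.811%) differed by more than 4-fold between SHRSP and WKY rats and passed the test, 48 of them higher (0.236%) and 117 lower (0.575%). In all 165 the 3 SHRSP arrays did not overlap the 3 WKY arrays, but this was also so for 57.8% of all tested probes. At any fold 5685 probes (28.0%) passed the test, 1103 higher (5.42%) and 4582 lower (22.5%). The share that was higher moved with the scaling. Of the 165 calls it was 29.1%, against 34.5% to 38.3% of 146 to 154 calls under 3 other scalings and 53.5% of the 43 calls after normexp background correction. Of the 5685 it was 19.4%, against 43.8% of 5378 when all probes set the percentile and 51.6% of 6136 after quantile normalization. The median difference over all tested probes was -0.11, and it was -0.01 and 0.02 under these last 2 scalings, so small differences are to be read against that shift. Of the calls 75 probes had a gene symbol, for 68 genes of which 29 were higher and 39 lower, and 90 had none. That was 0.509% of the tested probes with a symbol and 1.61% of those without. Among genes, taking 1 probe for each, 64 of 12488 (0.512%) were called, 0.224% higher and 0.288% lower, and 3294 (26.4%) passed the test at any fold, 6.51% higher and 19.9% lower.

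All 3 WKY arrays lay on 1 slide, together with the third 3-week SHRSP array, and no slide held both groups, so the groups and their slides cannot be told apart directly. A fit with that slide as a term rests on the single 3-week SHRSP array there, so its differences are less precise. It made 111 calls (0.546%), 84 of them among the 165, and 667 probes (3.28%) passed at any fold. Some genes no longer passed although their difference held, such as Nqo1 (-0.86, and -1.10 with the term) and Cyp24a1 (1.69 and 1.62). For others it shrank, such as Gclm (-1.72 and -0.57) and Slc9a3 (-1.04 and -0.25). Whether a lost pass came from the slide or from lower precision was not tested. Within the second scan day, the only one that held both groups, the first SHRSP array against the 3 WKY arrays gave 260 calls, 143 of them higher, with the lone SHRSP array assumed to vary as the other groups do.

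**Figure D2:**
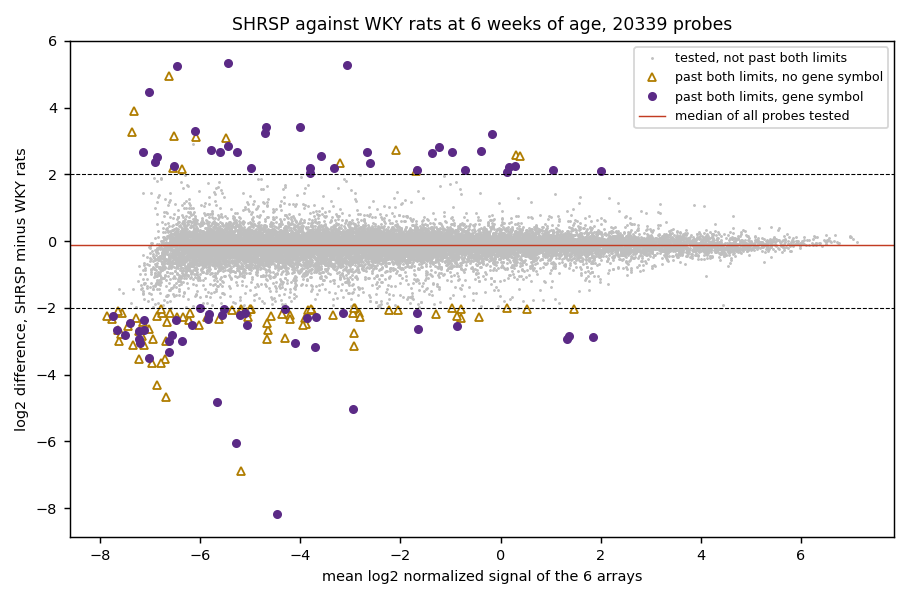
Each point is a tested probe, with the mean log2 signal of the 6 arrays on the x axis and the log2 difference of SHRSP minus WKY rats on the y axis, and called probes with and without a gene symbol are marked. The 117 lower calls outnumbered the 48 higher calls, and those without a symbol made up 77 of the lower ones.

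The lower genes with a symbol were led by Vegfb, Apoh and Rxrg, each of which was far lower in the arrays labelled SHRSP than in those labelled SHRs. Vegfb measured -8.69, -8.34 and -8.61 on the 3 SHRSP arrays and -0.30, -0.35 and -0.45 on the 3 WKY arrays. No SHRSP array was above background and the groups were far apart. The fitted difference was -8.18 (SE 0.136, limma adjusted p = 6.69e-14), at least 84.6-fold lower, and its probe lies at chr1:209657830-209657889 of rn4. The 6-week SHRs differed from WKY rats by -0.12 at the same probe. Apoh encodes beta-2-glycoprotein I, a plasma protein that binds phospholipid. It measured -6.97, -8.87 and -9.07 in SHRSP against -2.26, -2.53 and -1.97 in WKY rats, at least 22.9-fold lower (difference -6.05, SE 0.462, limma adjusted p = 6.66e-07), and the difference was 0.09 in SHRs. Rxrg encodes retinoid X receptor gamma, a nuclear receptor that pairs with the retinoic acid, vitamin D and PPAR receptors. It measured -5.27, -5.70 and -5.44 in SHRSP against -0.40, -0.45 and -0.48 in WKY rats, a 32.5-fold decrease (difference -5.02, SE 0.151, limma adjusted p = 4.26e-11). Unlike the previous genes it was still above background on every SHRSP array, and in SHRs the difference was -0.44.

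Other lower genes were low in both 6-week hypertensive groups. Myo16, an unconventional myosin, measured -7.87, -8.57 and -7.76 in SHRSP and -3.08, -3.35 and -3.32 in WKY rats, at least 11.5-fold lower (difference -4.82, SE 0.321, limma adjusted p = 1.83e-07), with a difference of -4.38 in SHRs. Tspan1, a tetraspanin of epithelial membranes, measured 0.06, -0.08 and -0.39 in SHRSP and 2.79, 2.80 and 2.83 in WKY rats, a 7.66-fold decrease (difference -2.94, SE 0.128, limma adjusted p = 2.05e-09). It was the only one of the 12 named lower genes whose signal lay above the 75th percentile in WKY rats. The receptor tyrosine kinase gene Ros1 was 8.37-fold lower and the keratin gene Krt76 was 8.96-fold lower, both above background on all 6 arrays. Hsd17b13, which encodes a lipid droplet steroid and retinol dehydrogenase, was at least 3.15-fold lower, the pentraxin gene Nptx1 at least 3.77-fold and the annexin gene Anxa13 at least 2.02-fold. Nabp1, a single-stranded DNA binding protein gene, and the pseudogene C1galt1c1-ps1 were at least 2.81-fold and 2.13-fold lower. With the slide term their differences were -1.71 and -0.87 and did not pass the test (limma adjusted p = 0.53 and 0.57).

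The higher genes with a symbol were led by Cyp8b1, Adtrp and Serpina3m. Cyp8b1, the sterol 12-alpha-hydroxylase of cholic acid synthesis, measured -2.76, -2.90 and -2.68 on the SHRSP arrays and -8.08, -8.80 and -7.46 on the WKY arrays. No WKY array was above background. It was at least 19.2-fold higher in SHRSP (difference 5.33, SE 0.271, limma adjusted p = 9.95e-09). Adtrp, which encodes a membrane hydrolase of fatty acid esters of hydroxy fatty acids, measured -0.33, -0.41 and -0.55 against -5.65, -5.65 and -5.82, a 38.8-fold increase (difference 5.28, SE 0.108, limma adjusted p = 4.95e-13). It was above background on all 6 arrays. Serpina3m, a serine protease inhibitor gene, measured -3.99, -3.78 and -3.78 against -9.10, -9.06 and -9.09, at least 9.13-fold higher (difference 5.23, SE 0.118, limma adjusted p = 1.11e-12). Oxnad1, an oxidoreductase domain gene, was at least 4.79-fold higher. In 6-week SHRs the differences of these 4 genes from WKY rats were 5.13, 5.89, 5.40 and 4.45, and both hypertensive groups share the same WKY arrays.

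Gc and Cyp2c11 varied widely within the WKY arrays. Gc encodes the vitamin D binding protein, which carries vitamin D in plasma and into the proximal tubule. It measured 1.39, 1.56 and 1.37 in SHRSP and -1.04, -2.84 and -1.48 in WKY rats, a 9.34-fold increase (difference 3.22, SE 0.323, limma adjusted p = 9.7e-06), and the lowest SHRSP array stood above the highest WKY array. Cyp2c11, a steroid and arachidonic acid hydroxylase that is predominantly male in rat liver, was 6.48-fold higher, with means of 0.95 ± 0.35 in SHRSP and -1.74 ± 1.05 in WKY rats (± SD, n = 3 arrays each). Acox2, the peroxisomal oxidase of branched-chain fatty acids and bile acid intermediates, measured 0.12, 0.13 and 0.33 in SHRSP and -2.76, -2.58 and -2.55 in WKY rats, a 7.07-fold increase (difference 2.82, SE 0.0897, limma adjusted p = 6.62e-11). Smpd3, neutral sphingomyelinase, was at least 5.82-fold higher and the chloride channel gene Cftr, described below, 6.21-fold higher. Prp2l1 was 9.39-fold higher in SHRSP, and the 6-week SHRs did not share this increase. Nalf1 and the olfactory receptor gene Or10d5j completed the 12 leading higher genes with Gpr35, a receptor of kynurenic acid. Nalf1 did not pass the test with the slide term (difference 3.32, limma adjusted p = 0.071).

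**Figure D3:**
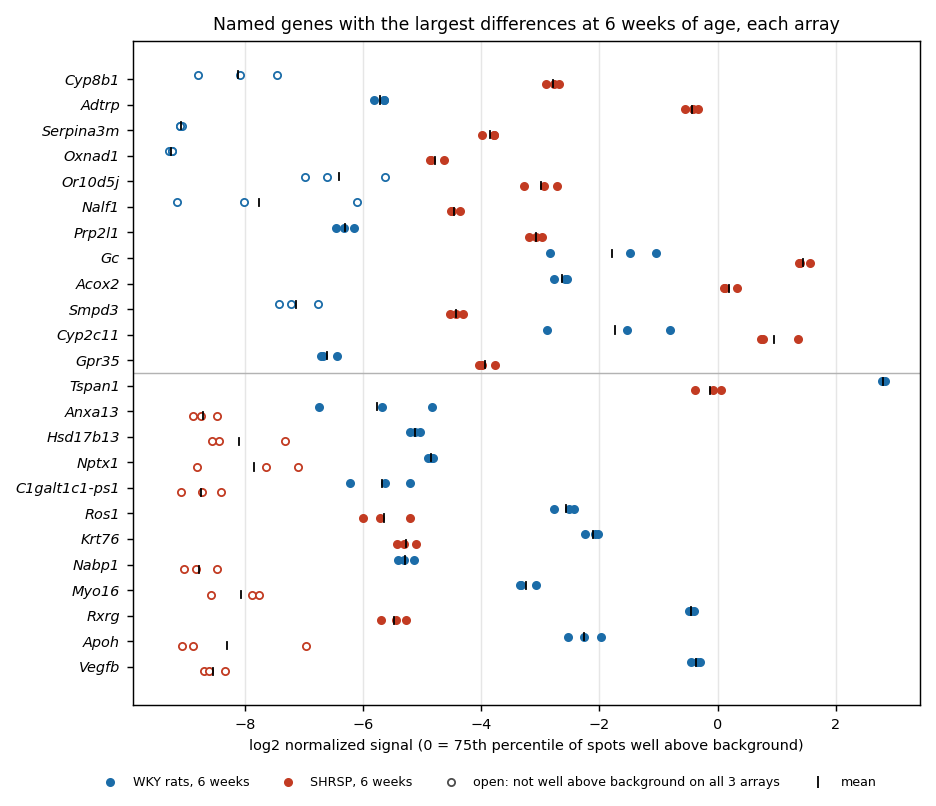
The log2 normalized signal of the 12 named genes with the largest increase and the 12 with the largest decrease is plotted for each of the 3 SHRSP and 3 WKY arrays at 6 weeks of age, with ticks at the means and open points where a group was not well above background on all 3 arrays. Only genes whose groups did not overlap were chosen, so the separation shown follows from the choice. Among them Vegfb, Apoh and Myo16 fell below background in SHRSP, whereas Cyp8b1 and Oxnad1 did so in WKY rats.

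Further probes of the same genes were tested for 12 of the 18 called genes with several probes on the array. In 6 genes all tested probes were called, namely Cftr, Fmo2, Rdh16, Spock2, Albfm1 and all 3 probes of Dbp. In 9 of the 12 all tested probes had the same sign. The exceptions were Ankfy1, Rpl10l1 and Tiprl, whose other probes differed by 0.22, -0.27 and 0.34. Albfm1 and Gc, relatives of the albumin gene, lie within a stretch of chromosome 14 and moved in opposite directions: both Albfm1 probes differed by -2.86, with the first measuring 0.40, 0.36 and 0.46 in SHRSP against 3.17, 3.28 and 3.36 in WKY rats.

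The renin-angiotensin system showed small differences. Of its 18 tested genes 2 passed the test (11.1%, against 26.4% of all genes), the aminopeptidase gene Anpep higher (0.38) and Agtr1a lower, and the median difference was -0.07. Agtr1a, the main receptor of angiotensin II in the rat kidney, differed by -0.24 (limma adjusted p = 0.0267) and did not pass under 3 other scalings (adjusted p = 0.13 to 0.23), and neither gene passed with the slide term. Agt, the angiotensinogen gene, differed by 0.43 (limma adjusted p = 0.101), Ace by -0.19 (0.31) and Agtrap by 0.25 (0.145), none of which passed. In the kallikrein-kinin system, which yields the vasodilator bradykinin, 4 of 12 tested genes passed, 3 lower and Serpina3m higher. The lower genes were Kng2 and Kng1, closely related kininogen genes whose transcripts the probes may not separate (differences -1.65 and -1.52), and Klkb1, plasma prekallikrein (-1.57, at least 2.03-fold lower). Kng2 kept its direction and passed the test under all the alternatives run, whereas Kng1 did not pass with the slide term. Klk1, tissue kallikrein, differed by 0.22 (limma adjusted p = 0.0641).

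Among genes of sodium and chloride transport 13 of 34 passed (38.2%, against 26.4% of all genes), 11 lower and 2 higher. The split moved with the scaling, to 5 lower and 5 higher when all probes set the percentile, and with the slide term Slc9a2 was lower and Cftr higher. Cftr, the chloride channel of secreting epithelia, was the only one called, measuring -0.25, 0.25 and -0.17 in SHRSP against -2.71, -2.74 and -2.63 in WKY rats (difference 2.63, SE 0.297, limma adjusted p = 2.77e-05). Slc9a3, the proximal sodium-hydrogen exchanger NHE3, differed by -1.04 at 1 probe and by 0.01 at another, and the thiazide-sensitive cotransporter Slc12a3 by -0.37 and 0.03. Wnk4 differed by -0.56 and the furosemide-sensitive cotransporter Slc12a1 by -0.27, and none of these 4 genes passed with the slide term. Sgk1, an aldosterone-induced kinase, differed by -0.64 in SHRSP and by 1.17 in SHRs.

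Of 29 genes of water, calcium, magnesium and phosphate transport 5 were higher and 5 lower, and 1 and 4 with the slide term. Aqp3, the basolateral water channel of the collecting duct, was 2.51-fold higher (difference 1.33, limma adjusted p = 1.77e-07) and Aqp4 differed by 0.53, 0.08 and 0.60 at its 3 probes. Pkd2l1, a polycystin-like cation channel, was at least 2.77-fold lower and Cldn16, the paracellular magnesium and calcium pore of the thick ascending limb, differed by -1.21. Aqp3, Pkd2l1 and Cldn16 passed with the slide term, Aqp4 did not. Of 30 eicosanoid genes 3 were higher and 5 lower (26.7% in all, against 26.4% of all genes), and 1 was higher and 2 lower with the slide term. Cyp4a3, close in sequence to Cyp4a2, which makes the vasoconstrictor 20-HETE from arachidonic acid, measured 3.54, 3.50 and 3.39 in SHRSP against 5.35, 5.48 and 5.38 in WKY rats, a 3.80-fold decrease (difference -1.93, SE 0.0651, limma adjusted p = 1.23e-10). Hpgd, which inactivates prostaglandins, differed by -0.80 and Cyp4a1 by 0.60. Ephx2, soluble epoxide hydrolase, differed by 0.20 (limma adjusted p = 0.347).

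Fatty acid oxidation and peroxisome genes leaned to higher levels in SHRSP, with 12 of 43 tested members higher and 6 lower against 6.51% higher and 19.9% lower over all genes (3.43% passed in all with the slide term). Their median difference was 0.08 against -0.11 for all tested probes. Under the other scalings and normexp correction 12 to 17 members were higher and 4 to 8 lower. Of all probes past the test 33.5% to 51.6% were higher in those fits, against 19.4% in the main fit. The shares of the main fit are therefore no background for those counts. With the slide term 5 members were higher and 1 lower. Besides Acox2, the fatty acid binding protein gene Fabp1 and the acyl-CoA synthetase Acsm5 differed by 1.45 each (0.54 at a second Acsm5 probe), the acyl-CoA thioesterases Acot3 and Acot12 by 0.78 and 0.63 and the carnitine transferase Cpt1a by 0.39. The lower members were Crot, Acaa2, Cd36, Acaa1a, Ehhadh and Ppargc1a, with differences between -0.54 and -0.29.

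Retinoid, vitamin D and steroid genes included 5 that were called, of 41 tested, against 0.512% of all genes. They were Rdh16, Gc and Cyp8b1, higher, and Rxrg and Hsd17b13, lower. The study had listed all 5 from these same arrays, and this gene list was chosen with earlier results known. The count is therefore no independent evidence about the pathway. Of the 41 tested members 8 were higher and 11 lower, against 6.51% and 19.9% of all genes, and 4 and 5 were so with the slide term. Rdh16, a retinol and hydroxysteroid dehydrogenase, was higher (difference 2.67), as were the vitamin D hydroxylases Cyp24a1 (1.69), which inactivates the hormone, and Cyp27b1 (1.01), which makes it. The dehydrogenase Hsd17b2 (-1.60) and the retinoic acid hydroxylase Cyp26b1 (-1.13) were lower. Cyp24a1 did not pass with the slide term and Cyp27b1 did. Of 46 glutathione and redox genes 10 were lower and 3 higher, close to the shares over all genes, and 2 of each were so with the slide term. Gclm, the modifier subunit of the enzyme that starts glutathione synthesis, differed by -1.72 and Nqo1 by -0.86, neither of which passed with the slide term, whereas Gsta3 (0.84), Gsta1 (0.75), Gstt2 and Srxn1 (-0.89) did. After quantile normalization 10 were higher and 7 lower, and 51.6% of all probes past the test were higher in that fit.

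The circadian clock list had the largest share of members past the test among these pathways, 10 of 18 (55.6%, against 26.4% of all genes), in 2 opposite sets. Dbp, a PAR bZIP activator and direct output of the clock, measured 3.23, 2.74 and 3.18 in SHRSP against 0.79, 0.91 and 1.14 in WKY rats. Its lowest SHRSP array was well above the highest WKY array, a 4.30-fold increase (difference 2.10, SE 0.153, limma adjusted p = 4.04e-07). Nr1d1 (1.64), Hlf (1.19), Tef (1.14), Nr1d2 (0.89), Per2 (0.80) and Bhlhe40 (0.29) were also higher. Bmal1, the activator whose targets include those genes, measured -2.77, -2.37 and -2.73 against -0.78, -0.90 and -0.99, a difference of -1.74 (limma adjusted p = 4.59e-06). Its partner Npas2 (-1.38) and the repressor Nfil3 (-1.61) were lower too. Transcripts of the 2 sets are known to peak at opposite times of day, and the hour at which the kidneys were taken is not given in the sources used here, so its part in the result was not tested. The split was 8 higher and 3 lower under each of 3 other scalings and normexp correction. In those fits 33.5% to 51.6% of all probes past the test were higher, against 19.4% in the main fit. With scan day as a block the split was 5 and 3. With the slide term it was 4 and 3, and 3.43% of all genes passed in that fit. In 6-week SHRs the same genes differed from WKY rats by 0.83 (Dbp), -0.68 (Bmal1) and -0.13 (Nfil3), and all 3 Dbp probes differed between the 6-week strains (1.28 to 1.41, past the limma test).

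**Figure D4:**
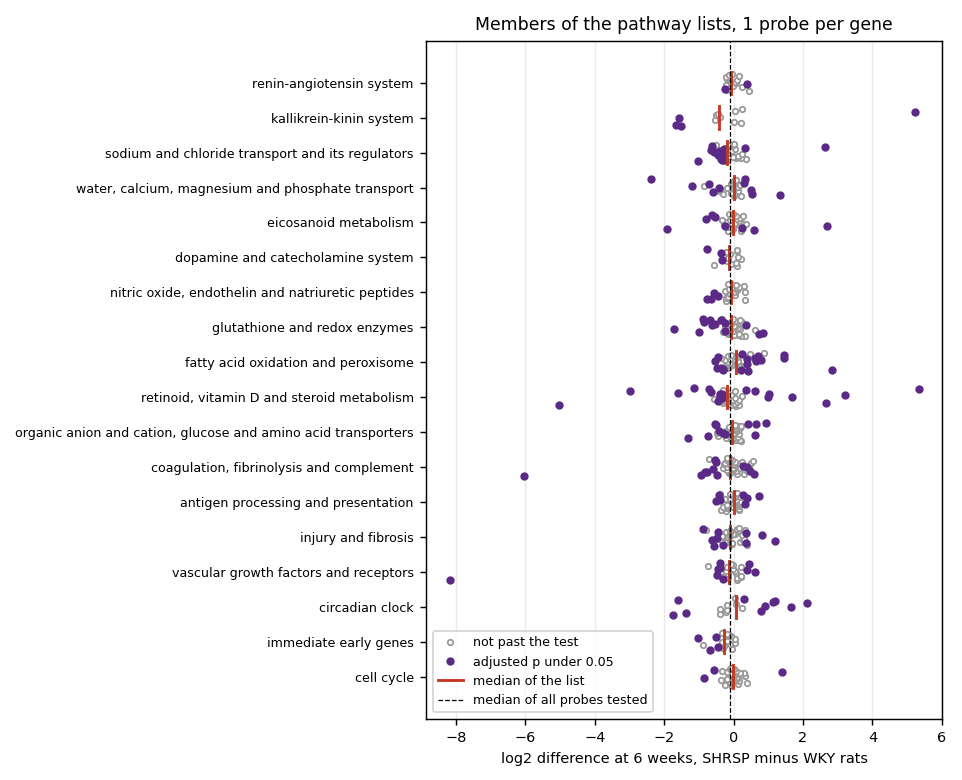
Each point is the log2 difference of SHRSP minus WKY rats at 6 weeks of age for 1 gene of the pathway list named on the y axis, filled where the limma adjusted p was under 0.05, with a bar at the median of the list and a dashed line at the median of all tested probes (-0.11). The clock genes spread to both sides, from Bmal1 at -1.74 to Dbp at 2.10, while the renin-angiotensin genes stayed within 0.43 of 0.

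The remaining lists held few large differences, and their counts are to be read against 6.51% higher and 19.9% lower over all genes. Apart from Apoh, 7 of 42 coagulation and complement genes were lower and 4 higher, all within 1.0 on the log2 scale, and none passed with the slide term. Hrg, histidine-rich glycoprotein, was among them at -0.48 (limma adjusted p = 0.00986, and -0.21 at a second probe that did not pass), while it differed by 1.91 in SHRs. Apart from Vegfb, 5 of 26 vascular growth factor genes were lower and 3 higher, again within 1.0. Nitric oxide and endothelin genes had 4 of 23 lower and none higher, among them both subunits of soluble guanylate cyclase, Gucy1a1 (-0.76) and Gucy1b1 (-0.64). Their other probes differed by -0.57, which passed, and by -0.71, which did not. Of the catecholamine genes 3 of 16 were lower, of the immediate early genes 4 of 17 were lower, and of 37 injury and fibrosis genes 4 were higher and 6 lower, with Mmp9 (1.21) the highest and Havcr1, the injury marker KIM-1, at -0.56. Antigen presentation genes had 4 of 32 higher and 3 lower, with the class II chaperone subunit RT1-DMa at 0.74. The transporters of organic ions, glucose and amino acids had 4 of 46 higher and 7 lower, and cell cycle genes 1 higher (Mcm7, 1.41) and 2 lower of 33. With the slide term Vegfb was the only vascular growth factor gene past the test. Gucy1a1, but not Gucy1b1, was then the 1 lower nitric oxide and endothelin gene. None of the catecholamine, immediate early or injury genes passed. Of the antigen presentation genes 1 was then higher and 1 lower, of the transporters 2 and 1, and of the cell cycle genes 1 was higher. Of the 58 tested genes that the study itself had listed for SHRs or SHRSP, 22 were higher and 23 lower, but these were chosen on these same arrays and are no independent evidence of direction.

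Markers of some cell types passed the test, against 19.9% of all genes lower and 6.51% higher. All 4 tested lymphocyte markers were lower, Cd3g by -1.85, Cd3d by -0.79, Pou2af1 by -0.59 and Ptprc by -0.30, and 7 of the 12 were above background on no array. Under the other scalings, normexp correction and scan day as a block 3 of the 4 passed. Another Ptprc probe differed by -0.67 and did not pass, and further Pou2af1 probes (0.40 and 0.38) were too dim to be tested. The summed level of the 12 was 0.40 to 0.43 in SHRSP and 0.61 to 0.66 in WKY rats. Of 6 intercalated cell markers 3 were lower (summed level 6.01 to 6.04 against 7.10 to 7.50), and the 10 endothelial markers summed to 15.5 to 16.6 against 13.2 to 13.9, with Tie1 and Plvap higher and Cdh5 lower. With the slide term 2 lymphocyte markers were lower and no intercalated or endothelial marker passed. Their part in the differences of other genes was not tested. Red cell markers overlapped between the groups (59.0 to 112 against 91.5 to 118), and none of the 7 passed.

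The lower calls without a symbol behaved differently from the named ones across the arrays. Of the 117 lower calls 77 (65.8%) had no symbol, against 27.5% of all tested probes, and these 77 were 1.37% of the tested probes without one. Set against the mean of 3-week WKY rats, the 77 had medians of 1.38, 1.30 and 1.21 on the 6-week WKY arrays and 1.53 on the third 3-week SHRSP array, which shared their slide, but 0.32 and 0.17 on the first and second 3-week SHRSP arrays, which did not. They had -0.96, -0.84 and -1.02 on the 6-week SHRSP arrays. On the slide-mate array 47 of the 77 (61.0%) lay over 2-fold above the mean of the first and second 3-week SHRSP arrays, as did 5 of the 40 named lower calls (12.5%), 2 of the 48 higher calls (4.17%) and 161 of all tested probes (0.792%). With the slide term 19 of the 77 remained called, and 27 of the 40 named lower calls. That term is set by the same slide-mate array, so these counts are not independent of the 2-fold counts. The lowest of the 77, ENSRNOT00000036545, was among those that did not follow the slide: it measured -8.79, -8.42 and -8.68 in SHRSP against -1.90, -1.72 and -1.57 in WKY rats, at least 32.9-fold lower, and differed by -6.83 with the slide term and by -7.80 at 3 weeks of age. The 40 named ones did not follow the slide by their medians, which were -1.51, -1.16 and -1.32 on the 3 arrays of 3-week SHRSP, although 13 of them were no longer called with the slide term. The 35 named higher calls had medians of 2.88, 2.62 and 2.93 on the 6-week SHRSP arrays and 0.04, 0.22 and 0.21 on the WKY arrays.

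**Figure D5:**
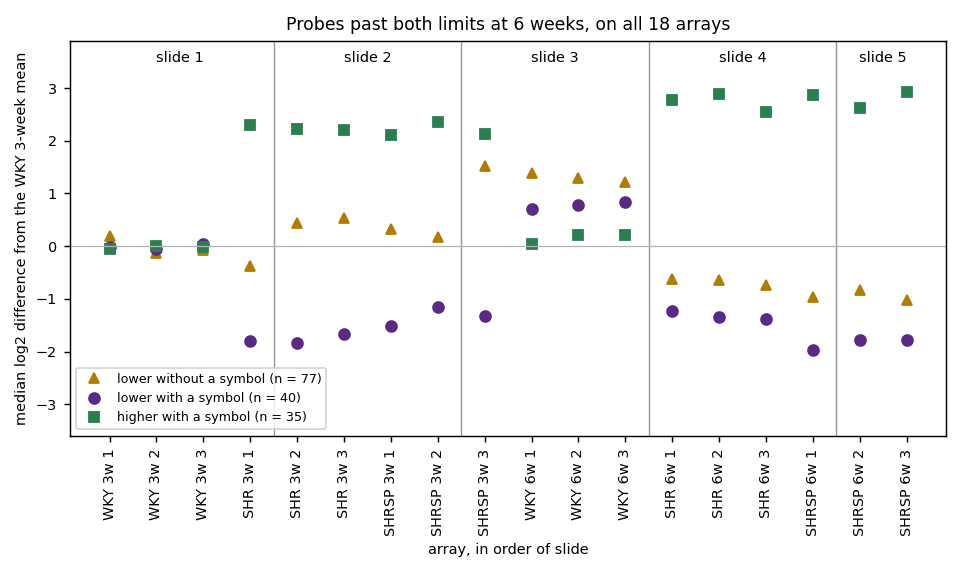
The median log2 difference from the 3-week WKY mean is plotted for each of the 18 arrays, ordered by slide, for 77 lower calls without a symbol, 40 lower calls with a symbol and 35 higher calls with a symbol. On the third slide the unnamed lower calls were high on all 4 arrays, the 3-week SHRSP array (1.53) included, whereas the medians of both named sets followed strain.

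Some of the unnamed lower probes resembled probes of named genes. A run of at least 16 bases was shared with a differently named probe by 49 of the 77 (63.6%), against 14.1% of all tested probes and 32.4% of tested probes without a symbol. A named and tested gene was the match for 20 of the 77. For 14 of them a stretch of 30 bases differed by up to 4 bases from the named gene's own probe, and 10 of the 14 matched ribosomal protein genes. The sequences below show how close the probes were. They are taken from the probe annotation of the array, and capitals mark the bases that differ from the gene's own probe.
Rpl21, own probe: attcatggcctaatgtatacaaaggaaata
A_64_P084173: attcatAgcctaatgtaCacaaaggaaata
A_64_P095116: attcatggcctaatgtataAaaaAgaaata
A_64_P097927: attcatggcctaatgGaCaAaaaggaaata
A_64_P098021: attcatggcctaatgtatGcaaaggaaata
Rpl10a, own probe: ctcaagaaaaactggcagaacgtccgggct
A_64_P067570: ctcaagaaaaactggcagaaTAtccgAgct
Calm2, own probe: atgaagaggttgatgaaatgatcagggaag
A_64_P165160: atgaagaggttgatgaaatgatcagggaGg

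The near-copies were much lower in SHRSP and the genes' own probes slightly lower. Rpl21 encodes a protein of the large ribosomal subunit, and its own probe measured 5.45, 5.40 and 5.43 in SHRSP against 5.54, 5.72 and 5.67 in WKY rats, a difference of -0.22. The first near-copy, at chr8:59684472-59684531 of rn4, measured -5.57, -5.55 and -6.15 against -2.67, -2.90 and -3.03, a difference of -2.89 (SE 0.419, limma adjusted p = 0.000207). It measured -4.30 and -4.20 on the first and second 3-week SHRSP arrays and -2.23 on the third, level with the WKY arrays of that slide. The other near-copies of Rpl21, on chromosomes X, 6 and 11, differed by -2.03, -2.03 and -2.31. The near-copies of Rpl10a and of Calm2, which encodes calmodulin, differed by -2.34 and -2.10, whereas the own probes of these genes differed by -0.24 and -0.29. Over all 14 near-copies the difference ran from -3.64 to -2.01, and the named genes' own probes ran from -0.35 to -0.18 except Cd300c2l1 (-1.41). With the slide term 3 of the 14 passed the test and 2 were called. On the slide-mate array, which sets that term, 10 of the 14 were over 2-fold higher. By sequence alone these probes cannot be told apart from probes for the named gene's transcript, so none of them is reported as a change of a gene.

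The strain difference was also followed across age. The calls overlapped those at 3 weeks of age, which share no arrays with them: 36 of the 165 (21.8%) were also called between SHRSP and WKY rats at 3 weeks, which was 32.4% of the 111 called there (0.552% of those tested), and 44 (26.7%) between SHRs and WKY rats, which was 60.3% of 73 (0.371%). All had the same sign, 29 were called in all of these comparisons and 114 in neither 3-week one. The 15 called in 3-week SHRs and not in 3-week SHRSP included Vegfb, Apoh, Rxrg, Gdnf, Serhl2, Pcdh9, Sox2, Lilrb3l and Prp2l1. That count rests on the 4-fold limit and tests no difference: Gdnf, Sox2 and Pcdh9 differed from WKY rats by -1.998, -1.70 and -1.67 in 3-week SHRSP. As labelled, the difference between SHRSP and WKY rats itself changed by more than 4-fold from 3 to 6 weeks of age at 310 of 20682 tested probes (1.50%). Of the 310, 41 went upward and 269 downward, and 95 had a symbol. At any fold 25.9% of tested probes passed. With the slide term 76 probes were past both limits, and without the 3-week SHRSP array on the third slide 249 were. Against 3-week SHRs in place of 3-week SHRSP the count was 167 of 20519 (0.814%), and 42 with the slide term.

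Only some of the 165 calls separated the 2 hypertensive strains at 6 weeks of age. The calls had been chosen on the same SHRSP arrays, so shares above those of all probes follow in part from that choice. Of the 107 that were also tested between 6-week SHRSP and SHRs, 22 passed the test (3.54% of all probes passed in that comparison) and 10 did so beyond 4-fold (0.234%). Those lower in SHRSP were Vegfb (-8.05), Apoh (-6.14), Rxrg (-4.58), Serhl2 (-2.77) and Nfe2l3 (-2.14), a CNC family transcription factor gene. Those higher were LOC684506 (2.49), Lilrb3l (2.64), Prp2l1 (3.70) and a pair of transcripts without a symbol, ENSRNOT00000068686 (3.40) and ENSRNOT00000004642 (3.75). Serhl2, a serine hydrolase-like gene, measured -2.87, -2.99 and -3.03 in SHRSP against -0.25, -0.35 and -0.37 in WKY rats (limma adjusted p = 9.54e-10), while SHRs differed from WKY rats by 0.13.

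The last pair lay on either side of Prp2l1, whose probe starts at position 92705889 of chromosome 10 and which differed from WKY rats by 3.23 in SHRSP, 3.10 in 3-week SHRs, 0.04 in 3-week SHRSP and -0.47 in 6-week SHRs. ENSRNOT00000068686 starts at position 92638563 and ENSRNOT00000004642 at 92767656, and they measured -4.00, -3.87 and -3.95 and -4.64, -4.40 and -4.54 in SHRSP. The WKY arrays measured -7.12, -7.27 and -6.70 for the first and -7.59, -7.80 and -7.56 for the second, above background on 1 array and on none. Their differences from WKY rats were 3.13 and 3.33 in 3-week SHRs, -0.06 and 0.55 in 3-week SHRSP and -0.30 and -0.63 in 6-week SHRs, the pattern across labels that Vegfb and Apoh also had.

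The 13 higher calls without a symbol, the pair from chromosome 10 among them, had medians of 3.38, 3.51 and 3.43 on the SHRSP arrays against 0.64, 0.30 and 0.68 on the WKY arrays, and no median above 0.30 on any 3-week array. Of these, 4 lay on chromosome 17 between 72120754 and 72275067. XR_007487 measured 1.66, 1.77 and 1.55 in SHRSP and -0.87, -1.04 and -0.77 in WKY rats (difference 2.55, SE 0.17, limma adjusted p = 1.86e-07). LOC689842 differed by 2.58, and the probes of ENSRNOT00000043837 by 4.95 and 3.27, at least 7.48-fold and 2.50-fold higher. At 3 weeks of age the same 4 probes differed between SHRSP and WKY rats by 0.20, 0.11, 0.36 and -0.17, the change with age passed the limma test for each (adjusted p = 2.9e-05, 6.2e-06, 4.9e-05 and 2.4e-05), and in 6-week SHRs the differences were 1.95, 1.90, 4.59 and 2.91. These probes were chosen after their values were seen.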

How the data were processed

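Kidney RNA of the 3 strains, with 3 samples for each strain and age, was hybridised by the authors to one-colour Agilent rat arrays, 1 sample to each of 18 arrays, and the deposited intensity values are the processed signals of Agilent Feature Extraction 10.5.1.1, background-subtracted per the file headers. The deposited value table held the same intensity values (0 spots differed). Whether samples came from separate animals rests on the study's statement of biological triplicates.

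Flagged spots were left out, spots of a probe were averaged and each array was divided by its 75th percentile over spots well above background before taking log2. Of 30367 probes 30359 were fitted, and 20763 had 1 gene symbol through accessions, symbols or synonyms of the RefSeq table. A limma 3.58.1 model (R 4.3.3) over all 18 arrays (13.9 degrees of freedom) gave differences, standard errors and Benjamini-Hochberg adjusted p-values. A probe was called at adjusted p under 0.05 and beyond 4-fold. Changes with age were interaction contrasts of the same model. Where a group was below background on all 3 arrays, folds are lower bounds from the lowest signal well above background. No spot counts exist, so the number of arrays limits precision. The comparison, the gene lists and the rule for named genes were chosen with earlier results of these data known. The rule took the 12 called genes with the largest difference in each direction, among those whose 3 SHRSP and 3 WKY arrays did not overlap. It also took up to 4 members past the test in each list and a fixed set of blood pressure genes. The leading genes of the age and label checks, among those called there, were added. Others are named in addition. The probe of highest mean signal stood for a gene, and some genes set by the rule or the lists are not reported here.

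On simulated data for this comparison (20339 probes), 100% of 100 probes with a simulated log2 change of 3 were called, and 87% of 100 with a change of 1 passed the test. Of the unchanged probes 0 were called and 4 passed the test. The simulated noise was independent between arrays and held no slide effect, so these shares do not cover an effect of the slides. Scaling, background correction, filters, blocks, weights and left-out arrays were varied. Gene positions are those of rn4 in the array annotation.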

Additional observations from a re-analysis of the deposited data

Results flagged for a closer look

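By the labels, the difference between SHRSP and WKY rats changed between 3 and 6 weeks of age for the named genes of the age comparison. The genes listed are those past 4-fold and the adjusted limma interaction test, so passing it is no further evidence. For genes that lay nearer the opposite label, Vegfb, Apoh, Agtrap, Haghl and Hba-a3 among them, changes with age and exchanged labels cannot be told apart. Between 3 and 6 weeks of age the log2 difference changed by -7.91 for Vegfb, -5.83 for Apoh, -4.45 for Rxrg, -4.95 for C1galt1c1-ps1 and -4.47 for Dhrs7l1. It changed by -3.83 for Zbtb16, a zinc finger gene above background on no 6-week SHRSP or WKY array, by -3.48 for Hrg, -3.004 for Gclm, -2.78 for Anxa13, -2.58 for the muscle actin gene Acta1 and -2.26 for the mRNA decay factor Zfp36. It changed by 6.31 for Hba-a3, 5.61 for Agtrap, 4.28 for Haghl, 3.77 for Ephx2, 3.64 for Or10d5j, 3.19 for Prp2l1 and 2.49 for Smpd3. Some of these sizes rest on signals at background and are not exact: Vegfb, Apoh, C1galt1c1-ps1 and Anxa13 were above background on no 6-week SHRSP array, Hba-a3, Haghl, Anxa13 and Or10d5j on no 3-week SHRSP array, and Smpd3 on no 6-week WKY array. C1galt1c1-ps1, Anxa13, Acta1 and Or10d5j were above background on no 3-week WKY array.

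Hba-a3, Agtrap, Haghl and Ephx2 did not pass the test between 6-week SHRSP and WKY rats (differences -0.34, 0.25, 0.05 and 0.20). For these genes the change lay in the 3-week arrays labelled SHRSP. In all, 310 probes changed in this way against 3-week SHRSP, and 167 when 3-week SHRs took the place of 3-week SHRSP.

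With the third slide as a term the 6-week differences of C1galt1c1-ps1 and Gclm were -0.87 and -0.57 and did not pass the limma test, and 76 probes were past both limits in the age comparison against 3-week SHRSP.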

How the results depend on the processing

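With the third slide as a term, chosen after seeing the data, the age comparisons fell to 76 and 42 probes and probes past the test at any fold to 667. Other alternatives chosen after seeing the data gave 109 calls without probes that differed over 2-fold within 3-week SHRSP, 75 among probes with a symbol and 260 within the second scan day. Normexp correction gave 43 calls, 101 and 43 in the age comparisons (against 3-week SHRSP and SHRs), 12 of 18 in the label check and 11 probes differing from SHRs. Testing only probes above background in the groups compared gave 81, 166, 106, 15 of 17 and 11. A 2-fold limit gave 816, 1465, 618, 181 of 225 and 78. Raising low signals gave 107 calls and 31 of 37 in the label check. Scan day as a block left 2261 probes past the test and 14 differing from SHRs, and array weights gave 12387 and 38. Leaving out 1 array gave 161 to 176 calls, 3760 to 4521 probes at any fold (lowest without the third SHRSP array), 310 to 317 and 154 to 167 in the age comparisons, 45 to 49 in the label check and 20 to 22 differing from SHRs. Where the alternative itself tests fewer probes or moves the limit the count follows from that, and the cause of the other shifts was not tested.

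Of 2808 values for 117 named probes 2464 kept their side of the test, 329 no longer passed and 13 newly passed. A further 2 turned: RT1-DOb (0.014) under normexp and Sox9 (0.18) with the slide term. A turn was counted only where the probe passed in the main fit or in the alternative. The 2464 can therefore include probes that passed in neither and changed sign. The replicate number did not pair the samples (correlations -0.17, -0.07 and -0.10), and with it as a block 165 probes were called and 5471 passed at any fold. The deposited value table held the scanner values, so that alternative was not run. Signal over background limits the lowest probes: in 70 calls 1 group was not above background, and their size is a bound.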
